A study of Mus musculus with 8 samples.

Results

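The genes described here are 10 receptors and adaptors with which macrophages take up modified lipoproteins, haemoglobin complexes and dying cells: Msr1, Marco, Cd36, Scarb1, Cd163, Stab1, Lrp1, Mertk, Axl and the endocytic adaptor Dab2. They were chosen by name, with earlier results of these data known. All 10 stood on 1 row each of the 11996 rows in the deposited expression table. Cd163 had a mean signal below the filter on low values (26.7 units), so 9 of the 10 are among the 11400 genes over which counts are given. Cd163 is described by its values alone.

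The cells were thioglycolate-elicited macrophages, drawn into the peritoneum of C57BL/6 mice by an irritant and left to adhere to plastic for 24 h. The labels give 4 groups of 2 samples: Ptpn1-/- cells with IL-10 (100 ng/ml for 4 h), Ptpn1-/- cells under mock treatment, wild-type cells with the same IL-10 treatment, and wild-type cells under mock treatment. Ptpn1 encodes the tyrosine phosphatase PTP1B. The labels used here give neither the age of the mice nor the deleted part of Ptpn1, and they do not say whether mock-treated and IL-10-treated cells shared donor mice. The deposited table holds 1 value per gene and group, the authors' mean signal. Values of single samples are not analysed here, so the spread between replicates is unknown for every difference below. No p-value is given, and the depth of sequencing is unknown. A difference is a log2 ratio of 2 signals after adding a pseudocount of 26.7 units to each, and 2-fold means a log2 ratio of 1 or more in either direction. Ptpn1 itself was listed at 3836.5 units in knockout mock cells, against 4960.5 units in wild-type mock cells, and at 5391.5 against 6736 units with IL-10. Its signal was not absent from the knockout, so it is a weak check of the genotype labels. Socs3, the feedback inhibitor that STAT3 induces, had log2 ratios for IL-10 over mock of 3.46 in knockout cells and 3.28 in wild-type cells.

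Scavenger receptors are membrane proteins of several unrelated families that bind oxidised lipoproteins, bacteria, apoptotic cells and other particles. The tyrosine kinases Mertk and Axl engage dying cells through the bridging proteins Gas6 and protein S. The large receptor LRP1 takes up protease complexes, apolipoprotein E particles and apoptotic cells. DAB2 is a clathrin adaptor that binds short tyrosine-containing motifs in the tails of receptors of the LDL receptor family and links them to coated pits. In macrophages the IL-10 receptor signals by way of JAK1, TYK2 and the transcription factor STAT3.

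Dab2 had the largest IL-10 difference of the 10 genes, and the difference was present in both genotypes. It was listed at 16014.5 units in IL-10-treated knockout cells, against 3079 units in mock-treated knockout cells, a signal 5.2 times as high (log2 ratio 2.37). In wild type it stood at 12436 units with IL-10 and 2865 units under mock, 4.34 times as high (log2 ratio 2.11). Both IL-10 columns were far above both mock columns, and the mock columns lay close together. How many of all kept genes had both IL-10 values above both mock values was not counted. Among the 11400 genes the Dab2 log2 ratio was the 8th highest in the knockout and the 8th highest in wild type. Of the 9 kept members Dab2 was the 1 at least 2-fold higher with IL-10 in either genotype, where 0.877% of all kept genes were so in the knockout and 0.465% in wild type. No kept member was at least 2-fold lower with IL-10, beside 0.0175% of all kept genes in each genotype. The members were chosen with earlier results of these data known, so these counts are no independent evidence for the choice of Dab2. The Dab2 row (ENSMUSG00000022150; mm9 chromosome 15, 6249788 to 6390712, plus strand) spans 140925 bases, as does the gene in the GENCODE M21 annotation, and no other row of the table overlaps it.

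The start regions annotated for Dab2 are shown because this gene carried the IL-10 difference, and that of Lrp1 because it carried the genotype difference described further on. Each runs from 250 bases before to 50 bases after an annotated RNA start, from the RefSeq annotation of build GRCm38.p6, 5′ to 3′ on the gene's strand. Capitals mark matches to TTCNNNGAA, the palindromic core of STAT binding sites, which reads the same on both strands.
Dab2, chr15:6299539-6299838, plus strand: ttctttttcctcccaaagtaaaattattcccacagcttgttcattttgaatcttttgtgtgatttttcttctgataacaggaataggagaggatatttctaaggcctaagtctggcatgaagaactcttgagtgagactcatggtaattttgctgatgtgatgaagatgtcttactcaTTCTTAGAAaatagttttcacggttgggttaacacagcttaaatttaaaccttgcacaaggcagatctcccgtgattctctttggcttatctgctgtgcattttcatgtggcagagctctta
Dab2, chr15:6386498-6386797, plus strand: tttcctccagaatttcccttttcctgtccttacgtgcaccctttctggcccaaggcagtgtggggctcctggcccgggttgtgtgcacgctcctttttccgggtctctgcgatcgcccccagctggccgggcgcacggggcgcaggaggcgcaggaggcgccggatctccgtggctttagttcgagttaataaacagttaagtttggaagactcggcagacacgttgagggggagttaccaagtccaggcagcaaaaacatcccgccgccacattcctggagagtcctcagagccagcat
Lrp1, chr10:127621099-127621398, minus strand: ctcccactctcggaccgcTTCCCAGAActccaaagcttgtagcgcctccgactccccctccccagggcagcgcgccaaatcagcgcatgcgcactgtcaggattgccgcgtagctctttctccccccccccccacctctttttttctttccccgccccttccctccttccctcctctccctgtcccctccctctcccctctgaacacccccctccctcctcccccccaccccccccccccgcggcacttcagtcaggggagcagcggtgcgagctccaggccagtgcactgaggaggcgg
The first Dab2 window held TTCTTAGAA, which begins 72 bases before the start, and the second Dab2 window held no match. The Lrp1 window held TTCCCAGAA, which begins 232 bases before the start. Windows were at hand for 8 of the 10 genes, 9 windows in all, and 2 of the 9 held the motif, against 8.3% of the 32851 windows in the annotation. A match is a string of letters and no evidence of binding. The window of Lrp1, whose signal was not higher with IL-10, held a match as well.

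**Figure D1:**
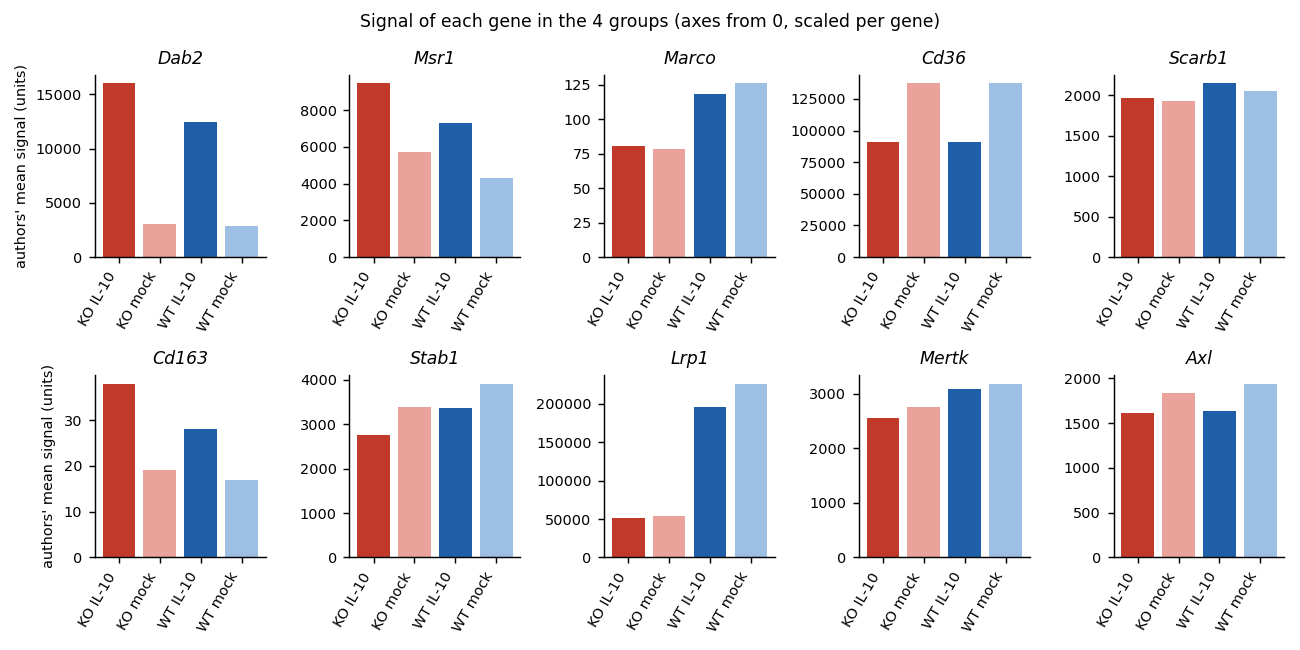
Authors' mean signal in units (vertical axis, from 0 and scaled for each gene) of the 10 genes in knockout IL-10, knockout mock, wild-type IL-10 and wild-type mock cells; each bar is 1 deposited value, with no error available. Dab2 stands at 16014.5 and 12436 units in the IL-10 bars against 3079 and 2865 units in the mock bars, and Lrp1 at 50969 and 54367 units in the knockout bars against 196010 and 226524 units in the wild-type bars.

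Msr1, the class A scavenger receptor that binds oxidised and acetylated lipoproteins, was also higher with IL-10 in both genotypes. It was listed at 9470 units with IL-10 and 5749.5 units under mock in the knockout (log2 ratio 0.72). In wild type it stood at 7279 units with IL-10 and 4313 units under mock (log2 ratio 0.75). Each IL-10 value lay above both mock values, and how many of all kept genes did so was not counted. With a limit of 1.5-fold, Msr1 joined Dab2, making 2 of 9 kept members higher in each genotype, where 2.32% of all kept genes were in the knockout and 1.54% in wild type. The row of Msr1 (mm9 chromosome 8, 40667054 to 40728032, minus strand) spans 60979 bases, close to the 60989 bases of the annotated gene. Cd163, the haemoglobin-haptoglobin receptor, is known as an IL-10-inducible gene in human monocytes and was near the bottom of the scale here. It was listed at 38 units with IL-10 and 19 units under mock in the knockout, and at 28 and 17 units in the same order in wild type. With the pseudocount its log2 ratios were 0.50 in the knockout and 0.32 in wild type. The pseudocount shrinks the ratio of so low a gene, and whether Cd163 RNA changed was not tested. No floor or interval can be given for these values, since depth is unknown.

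Cd36, a class B scavenger receptor for oxidised lipoproteins and fatty acids, was the 1 kept member lower with IL-10 by at least 1.5-fold, and its values need care. It was listed at 91114 units with IL-10 and 137379 units under mock in the knockout, and at exactly the same 91114 and 137379 units in wild type, a log2 ratio of -0.59 in each. At a limit of 1.5-fold, 0.807% of all kept genes were lower in the knockout and 0.412% in wild type; among the 146 genes with a mean signal above 20000 units the shares were 4.11% and 1.37%. The Cd36 row spans 63.6% of the annotated gene. The IL-10 value of Cd36 stood 7 ranks lower in its column than the mock value in the knockout, and 8 ranks lower in wild type. At this height the table moves in coarse and uneven steps. The next higher distinct value above 91114 was 111727 units in the knockout IL-10 column and 109718 units in the wild-type IL-10 column. The next lower ones were 90905 and 91062 units. Of the 148 values above 60000 units in the 4 columns together, 130 occur more than once, and they take 52 distinct values. Columns set to a common distribution would share values, so that count does not show steps within a column. Equal signals of the genotypes therefore do not show equal RNA levels of Cd36. When each signal was replaced by a value on a smoothed scale of ranks, an alternative added after the data were seen, the Cd36 log2 ratio was -0.36 in the knockout and -0.43 in wild type, both short of 1.5-fold. In the knockout it also fell short of 1.5-fold with log2 ratios centred on the median (-0.577), with the trend over transcript length subtracted (-0.583) and with the trend over signal subtracted (-0.566).

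The remaining receptors differed little with IL-10. Scarb1 is a class B receptor that takes up cholesterol from high-density lipoprotein. It was listed at 1958.5 units with IL-10 and 1928.5 units under mock in the knockout, and at 2147 and 2052.5 units in wild type. The Scarb1 row spans 56% of the annotated gene, and whether its value counts the whole gene is not given in the sources used here. Marco, a class A receptor for bacteria and particles, stood at 80.5 units with IL-10 and 78.5 units under mock in the knockout, and at 118 and 126 units in wild type. Both IL-10 log2 ratios of these genes were within 0.08 of 0.
Stab1, Mertk, Axl and Lrp1 were lower with IL-10 in each genotype, by less than 1.5-fold. Stab1, a scavenger receptor that also recognises phosphatidylserine, was listed at 2759.5 units with IL-10 and 3383 units under mock in the knockout (log2 ratio -0.29), and at 3365.5 and 3920 units in wild type (log2 ratio -0.22). Axl stood at 1617.5 units with IL-10 and 1836 units under mock in the knockout (log2 ratio -0.18), and at 1632 and 1942 units in wild type (log2 ratio -0.25). For Axl the IL-10 values of both genotypes lay below both mock values, and how often this held over all kept genes was not counted. Mertk had log2 ratios of -0.11 in knockout cells and -0.05 in wild-type cells, and Lrp1 -0.09 and -0.21. The median log2 ratio of the 9 kept members was -0.09 in the knockout and -0.08 in wild type, against -0.01 and 0.00 over all kept genes.

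**Figure D2:**
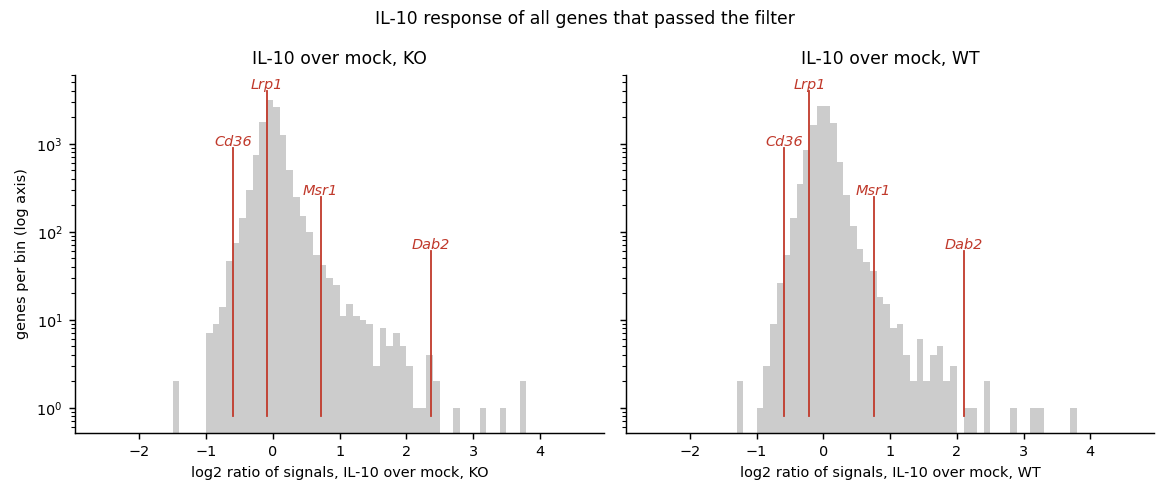
Number of kept genes (vertical axis, log scale) by log2 ratio of IL-10 over mock signal (horizontal axis), in the knockout and in wild type, with the values of 4 of the genes as vertical lines. Dab2 lies in the sparse upper tail at 2.37 and 2.11, Msr1 at 0.72 and 0.75, and Cd36 on the lower side at -0.59 in both.

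Between the genotypes, Lrp1 stood apart from the other genes. It was listed at 54367 units in knockout mock cells, against 226524 units in wild-type mock cells (log2 ratio -2.06). With IL-10 it stood at 50969 units in the knockout, against 196010 units in wild type (log2 ratio -1.94). The knockout signal was thus 0.24 times the wild-type signal under mock and 0.26 times with IL-10. Of the 9 kept members Lrp1 was the 1 at least 2-fold lower in the knockout, where 0.105% of all kept genes were under mock and 0.0789% with IL-10. Both differences were the second lowest of the 11400 genes. No kept member was at least 2-fold higher in the knockout, beside 0.325% of all kept genes under mock and 0.596% with IL-10. Both pairs were among the largest differences already known for these data, so they are no independent evidence for the choice of Lrp1.

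Facts of the table bear on the Lrp1 values. Lrp1 stood at rank 45 of its column in knockout mock cells, against rank 11 in wild-type mock cells, and at rank 47 in knockout IL-10 cells, against rank 14 in wild-type IL-10 cells. Signals in this range change steeply with rank. Among the 146 genes with a mean signal above 20000 units, 1.37% were at least 2-fold lower in the knockout under mock and 0.685% with IL-10. On the smoothed scale of ranks the Lrp1 log2 ratios were -1.73 under mock and -1.54 with IL-10. The Lrp1 row (ENSMUSG00000040249; mm9 chromosome 10, 126983451 to 126986973, minus strand) spans 3523 bases, 4.25% of the 82988 bases of the gene in GENCODE M21. That span equals that of 1 annotated Lrp1 transcript of 679 bases, of the nonsense-mediated decay class, which begins 71231 bases into the gene. Whether the deposited value counts reads of that transcript or of the whole gene is not given in the sources used here, so the values cannot be read as the level of full-length Lrp1 mRNA. Across all kept genes the log2 ratio of knockout over wild type was lower for longer transcripts, with a Spearman's rho across genes of -0.53 under mock and -0.40 with IL-10. With the running median over transcript length subtracted, the Lrp1 log2 ratio was -1.80 under each treatment, using the longest Lrp1 transcript of 14888 bases.

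**Figure D3:**
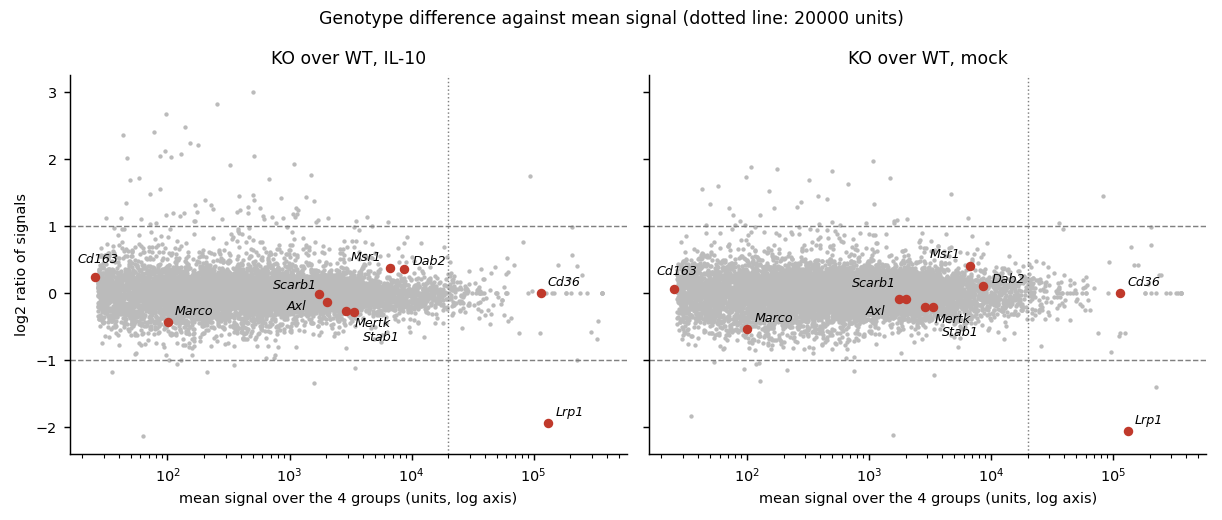
Log2 ratio of knockout over wild-type signal (vertical axis) against mean signal over the 4 groups (horizontal axis, log scale) for kept genes in grey and the 10 genes in red, with IL-10 and under mock; dashed lines mark 2-fold and the dotted line 20000 units. Lrp1 lies at the lower right at -1.94 and -2.06, where the grey point above it at higher mean signal is Lyz2 (-1.0 and -1.41); the other 9 genes lie between the dashed lines.

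**Figure D4:**
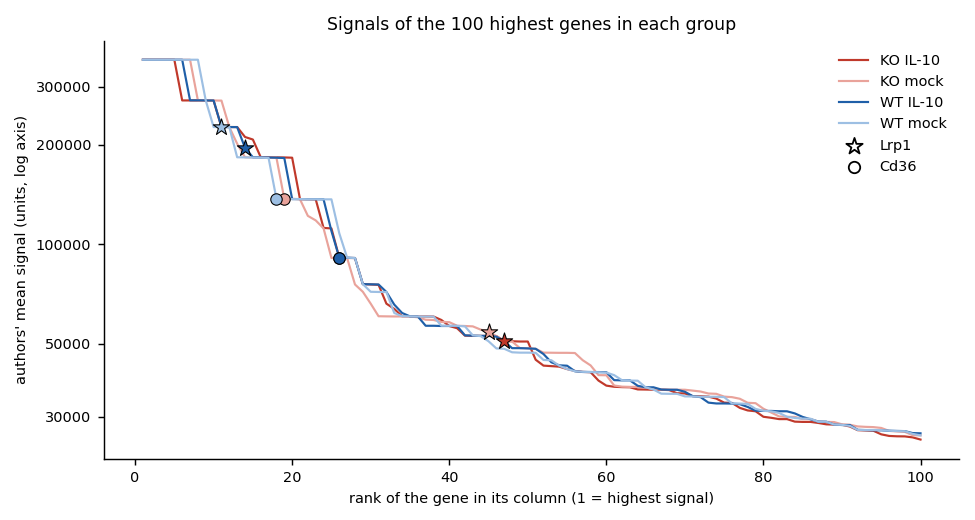
Authors' mean signal in units (vertical axis, log scale) of the 100 highest genes by rank (horizontal axis) in each of the 4 columns, with Lrp1 as stars and Cd36 as circles. The lines descend in flat steps above 60000 units; the Lrp1 stars of the knockout sit at ranks 45 and 47 and those of wild type at ranks 11 and 14.

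With the pseudocount, the other members differed between the genotypes by less than 1.5-fold. At that limit, 1.43% of all kept genes were higher in the knockout under mock and 1.8% with IL-10, and 1.4% and 0.991% were lower. Msr1 was higher in the knockout under both treatments, at 5749.5 units against 4313 units in wild type under mock (log2 ratio 0.41) and at 9470 against 7279 units with IL-10 (log2 ratio 0.38). Marco was lower, at 78.5 units in the knockout against 126 units in wild type under mock (log2 ratio -0.54) and at 80.5 against 118 units with IL-10 (log2 ratio -0.43). The values of the genotypes did not overlap for Marco, but the share of all kept genes without such overlap was not counted. Without the pseudocount its knockout signal was 0.623 times the wild-type signal under mock and 0.682 times with IL-10. Under mock its log2 ratio passed 1.5-fold, at -0.64, with a pseudocount of 0.25 ppm and, at -0.65, with the trend over transcript length subtracted. Mertk stood at 2761.5 units in the knockout and 3188 units in wild type under mock, and at 2564.5 and 3082 units with IL-10, with log2 ratios of -0.21 and -0.26. Both Mertk values of the knockout lay below both of wild type, an order likewise not counted over all kept genes.
Stab1 had log2 ratios of -0.21 under mock and -0.28 with IL-10, Scarb1 -0.09 and -0.13, and Axl -0.08 and -0.01. With the trend over transcript length subtracted, Stab1 was at -0.02 under mock and -0.17 with IL-10, and Mertk at -0.17 and -0.24. Scarb1 was then at -0.14 under each treatment, and Axl at -0.04 under mock and 0.01 with IL-10. Dab2 was nearly level under mock (log2 ratio 0.10) and had a log2 ratio of 0.36 with IL-10. Of the 9 kept members 6 were below 0, 2 above 0 and 1 (Cd36) at 0 under each treatment. Of all kept genes 45.8% were below 0 under mock and 47.4% with IL-10. The median of the members was -0.09 under mock and -0.13 with IL-10, against 0.02 and 0.01 over all kept genes. The Stab1 row (mm9 chromosome 14, 31952199 to 31953034, minus strand) spans 836 bases, 2.82% of the annotated gene, which is the span of 1 annotated transcript at the 3′ end. It overlaps the row of Nt5dc2 on the plus strand, and whether reads were counted by strand is not given in the sources used here. Nt5dc2 had log2 ratios of 0.15 under mock and -0.01 with IL-10. Of all rows with an annotated gene, 6.53% span under 10% of it.

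No member differed between the genotypes by 2-fold or 1.5-fold in its response to IL-10. The difference of the log2 ratios, knockout minus wild type, was 0.26 for Dab2, which was higher than in 94.1% of kept genes. It was 0.18 for Cd163, 0.12 for Lrp1 and 0.10 for Marco, and between -0.07 and 0.07 for the remaining genes. At the 2-fold limit 0.0965% of all kept genes had the larger log2 ratio in the knockout and 0.0351% in wild type, and at 1.5-fold the shares were 0.5% and 0.263%. The median over the 9 kept members was 0.00, as over all kept genes. Without values per sample, none of these differences between responses could be tested.

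**Figure D5:**
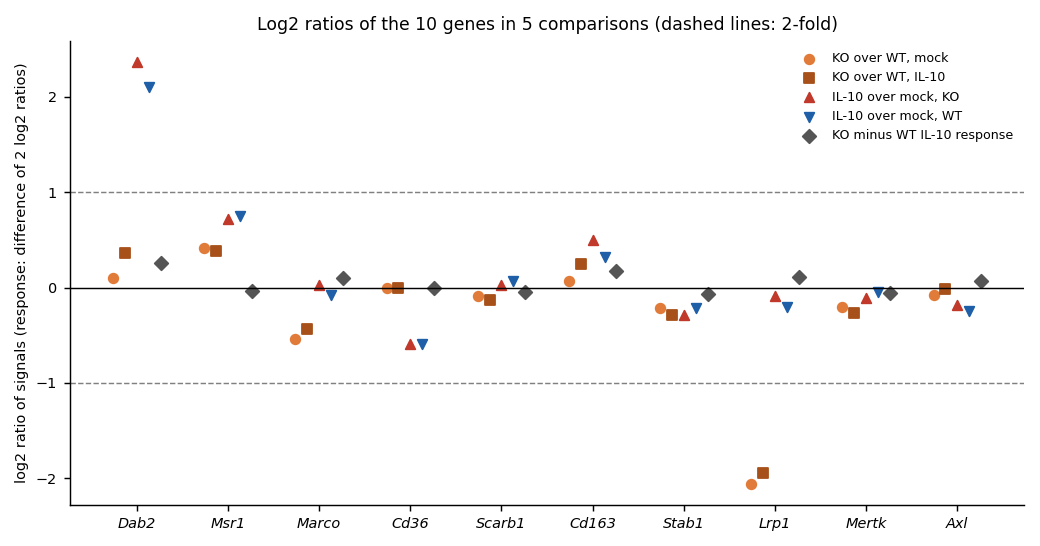
Log2 ratio of signals (vertical axis) of the 10 genes in 4 comparisons, and the difference of the genotypes' IL-10 log2 ratios as grey diamonds; dashed lines mark 2-fold. Dab2 passes 2-fold in the IL-10 comparisons (2.37 and 2.11) and Lrp1 in the genotype comparisons (-2.06 and -1.94); the other 8 genes stay within the lines.

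The genes whose pattern over the 4 groups lay nearest to that of a member were found by Euclidean distance between log2 signals centred on their mean, among 9439 genes with a mean of at least 134 units. Nearest to Dab2 were Gcnt2, a glycosyltransferase of I-branched glycans (distance 0.16), the inflammatory caspase gene Casp4 (0.35) and the adenosine receptor gene Adora3 (0.44). Gcnt2 was listed at 2321 units with IL-10 and 465 units under mock in the knockout, and at 1747 and 443 units in wild type. Nearest to Msr1 were Ankrd55 (0.07), the mitochondrial superoxide dismutase gene Sod2 (0.11) and the tetraspanin gene Tspan13 (0.12). Lrp1 had no close neighbour: the nearest were the ubiquitin ligase gene Mid1 (0.55), the lysozyme gene Lyz2 (0.82) and the collagen gene Col3a1 (0.89). Lyz2 lies in the same coarse range, at 136851.5 units in both knockout columns, against 272813 and 362618 units in wild type with and without IL-10. The nearest to Cd163, Fam82a2, Junb and Gyk, lay within 0.04, where the pseudocount flattens the pattern of Cd163. These distances rest on 4 values a gene.

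Other genes of uptake were counted in lists written down for this purpose. Of all kept genes, 2.32% were at least 1.5-fold higher with IL-10 in the knockout and 1.54% in wild type. In the knockout against wild type, 1.43% were higher by that limit under mock and 1.8% with IL-10, and 1.4% and 0.991% were lower. Of 9 listed and kept other scavenger receptors, Cxcl16, a membrane chemokine that binds oxidised lipoprotein, was the 1 higher by at least 1.5-fold with IL-10. It was listed at 6751 units with IL-10 and 3539 units under mock in the knockout (log2 ratio 0.93), and at 4924 and 2771 units in wild type (log2 ratio 0.82). Cd5l, a secreted scavenger protein of macrophages, was higher in the knockout, at 7417 units against 4901.5 units in wild type under mock (log2 ratio 0.59). Of 8 kept other engulfment receptors, Cd300lf, a receptor for phosphatidylserine, was the 1 past 1.5-fold with IL-10, in the knockout, at 3173 units against 2088.5 units under mock (log2 ratio 0.60), and its wild-type log2 ratio was 0.42. In the knockout under mock, 1 of those 8 was at least 1.5-fold lower: the third kinase of the Mertk and Axl family, Tyro3, which at 18 units in the knockout and 41 units in wild type was under the signal set for naming a gene and is given with its values already known.
Of 13 kept bridging ligands and LRP1 partners, none passed 1.5-fold with IL-10. Plau, which encodes urokinase, a protease cleared by LRP1 as an inhibitor complex, was higher in the knockout with IL-10, at 4317.5 units against 2676 units in wild type (log2 ratio 0.68). Gas6, Pros1 and Lrpap1 are named for their roles, after their values were seen. The Mertk and Axl ligand Gas6 had log2 ratios for IL-10 over mock of -0.08 in knockout cells and 0.00 in wild-type cells, and Pros1, which encodes protein S, 0.44 and 0.49. Lrpap1, the chaperone of LRP1, had log2 ratios of knockout over wild type of 0.24 under mock and 0.05 with IL-10.

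The relatives of Lrp1 leaned the same way between genotypes as Lrp1, by much less. Of 12 kept genes of the LDL receptor family, 10 were below 0 in the knockout under mock and 11 with IL-10. Of all kept genes 45.8% were below 0 under mock and 47.4% with IL-10. The medians of the family were -0.33 and -0.26. None was 2-fold lower. The 1 at least 1.5-fold lower was Ldlrad3, at 267 units in the knockout against 446 units in wild type with IL-10 (log2 ratio -0.69). With IL-10, 0.991% of all kept genes were at least 1.5-fold lower in the knockout. The median length of the longest transcript was 7276.5 bases in this family and 3461 bases over all kept genes. The trend of the genotype log2 ratios over transcript length given above runs in the same direction, and its part in these medians was not tested.
Of 16 kept genes of the clathrin coat and its adaptors, the machinery that Dab2 joins, none passed 1.5-fold in any comparison, and their IL-10 medians were 0.08 in the knockout and 0.07 in wild type. None of 11 kept genes of engulfment signalling (the ELMO, DOCK and RAC proteins and their partners) passed 1.5-fold either. The 5 kept genes listed as receptor proteases include the protease inhibitor gene Timp3. Of these 5, Adam9 was at least 1.5-fold higher with IL-10 in the knockout, where 2.32% of all kept genes were. Adam9, a membrane metalloprotease, stood there at 6375 units against 3547.5 units under mock (log2 ratio 0.84), with a wild-type log2 ratio of 0.51. Among nuclear receptors, Ppard, a lipid-activated receptor, was at least 1.5-fold higher with IL-10 in the knockout, at 2374 units against 1406 units under mock (log2 ratio 0.74), with a wild-type log2 ratio of 0.49. Pparg, which drives Cd36, is named for that role after its values were seen, and had log2 ratios for IL-10 over mock of -0.47 in knockout cells and -0.19 in wild-type cells.

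Markers of other cells moved with the genotype. Macrophage markers were present throughout: all 8 were listed, and the median log2 ratio of knockout over wild type was -0.04 under mock and 0.04 with IL-10. They went both ways, 4 above 0 and 4 below under each treatment, from Lyz2 at -1.41 and -1.0 to Fcgr1 at 0.79 and 0.61 (mock, then IL-10). Their summed signal was 466606 units in knockout IL-10 cells, 462227 in knockout mock cells, 558117.5 in wild-type IL-10 cells and 647375.5 in wild-type mock cells, most of it from genes in the coarse range. All 9 kept mesothelial and fibroblast markers, cells in which Lrp1 and Axl are also active, were below 0 in the knockout under mock, with a median of -0.62 and a range from -1.21 to -0.01. With IL-10, 8 of the 9 were below 0, and the median of the 9 was -0.60. Over all kept genes the shares below 0 were 45.8% under mock and 47.4% with IL-10. The summed signal of the 10 listed markers was 20242 units in knockout IL-10 cells, 20369 in knockout mock cells, 32367 in wild-type IL-10 cells and 33752.5 in wild-type mock cells. The genotype log2 ratios (mock, then IL-10) were -2.06 and -1.94 for Lrp1, and -0.08 and -0.01 for Axl. The part of these cells in either was not tested. All 7 kept monocyte markers except 1 were higher in the knockout, with a median of 0.61 under mock, 0.62 with IL-10, and sums of 4118, 3502.5, 2780 and 2391.5 units in the same order of groups. Of 7 endothelial markers 4 were listed, with sums of 2420.5, 2116, 2422.5 and 2563 units, and they differed widely. Pecam1 and Cdh5 were listed at no more than 23.5 units in any group. In the same order of groups Vwf stood at 1218, 1571, 1890 and 2253.5 units, and Kdr at 1156, 504, 504 and 284.5 units. Their genotype log2 ratios (mock, then IL-10) were -0.51 and -0.62 for Vwf, and 0.77 and 1.16 for Kdr.
Of 8 markers of resident peritoneal macrophages 7 were listed, and they went both ways: 3 were above 0 and 4 below under each treatment, with medians of -0.29 for mock and -0.33 for IL-10. Their sums were 2971.5, 2793, 2860.5 and 2496 units in the same order of groups. The genotype log2 ratio was 0.88 for Cxcl13 and -0.90 for Vsig4 in mock cells, and 0.73 for Cxcl13 and -1.07 for Vsig4 in IL-10 cells. The listed markers of neutrophils, dendritic cells, B cells, T cells and mast cells summed to at most 554 units for any of these lists in any group. In the same order of groups the sums were 224.5, 199, 107.5 and 106 units for neutrophils, and 554, 481, 360.5 and 330 for mast cells. They were 191.5, 137, 175 and 125 units for dendritic cells, 122.5, 119.5, 149 and 110 for B cells, and 156, 41, 116 and 27 for T cells. None of these markers was listed at 0. In bulk RNA, fewer cells of a type and less RNA per cell cannot be told apart, and the part of these markers in the genotype differences was not tested. The mesothelial and fibroblast medians for IL-10 over mock were 0.04 in the knockout and 0.00 in wild type, beside 2.37 and 2.11 for Dab2. In the same order of genotypes, monocyte markers had IL-10 medians of 0.41 and 0.33, with 3 of 7 at least 1.5-fold higher in each genotype. Over all kept genes the medians were -0.01 and 0.00, and 2.32% and 1.54% were at least 1.5-fold higher. Single markers of other lists were also higher with IL-10 and are named with their values known: Lck of the T cell list by log2 ratios of 2.08 and 1.79, Selp of the resident macrophage list by 1.86 and 1.67, Cd209a of the dendritic cell list by 1.26 and 1.43, and Kdr of the endothelial list by 1.16 and 0.77. The part of these markers in the IL-10 differences was not tested.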

How the data were processed

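RNA of 8 samples was sequenced, 2 in each of 4 groups, and the table used here holds 1 column per group. The submitters' processing notes name RSEM, Bowtie and mm9, with neither versions nor roles. The deposited values are called CPM by the submitters but are treated here as a normalized signal: each column sums to 26705598 units, all values are multiples of 0.5 and the highest value, 362618, is shared by the columns, as averages of libraries set to a common distribution would be. No header or label records that step. Such a step removes differences in depth and shifts common to most genes.

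Before log2 ratios were taken, 26.7 units (1 ppm of a column's sum) were added to each signal, and genes with a mean of at least 1 ppm were kept (11400 of 11996). Fits by limma, with or without a replicate block and leaving out samples, were planned for a table with 1 column per library and could not be run. Each kept gene was counted past 2-fold and past 1.5-fold. Transcript lengths and gene spans came from GENCODE M21 (11797 genes matched by identifier), and start regions from RefSeq on GRCm38.p6; no coordinate was converted between builds. The rule for naming genes outside the 10 took, from each list, up to 3 genes past 1.5-fold with a mean of at least 5 ppm (134 units), and the 3 nearest genes by pattern. The members, gene lists and limits were chosen with earlier results of these data known. For the 38 names found on several rows, the row with the highest mean was used. Ratios and trend corrections were checked on simulated data. The simulated transcripts were all shorter than the longest Lrp1 transcript, so the length correction was not checked at that length. Python 3.11.15, pandas 2.3.3 and numpy 2.4.6 were used. A gene of the listed regulators is not reported here.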

Additional observations from a re-analysis of the deposited data

How the results depend on the processing

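With a limit of 1.5-fold in place of 2-fold, the members past the limit with IL-10 were 3 in the knockout and 3 in wild type (Dab2, Msr1 and Cd36), against 1 in each; this follows from the lower limit. Cd36 in the knockout, at -0.592, lies just past that limit and fell short of it with log2 ratios centred on the median (-0.577) and with the length trend (-0.583) or the signal trend (-0.566) subtracted. The counts of members past 2-fold in the 5 comparisons were otherwise the same with pseudocounts of 0.25 and 4 ppm, without the filter, with a filter of 5 ppm, with log2 ratios centred on the median, with the trend over transcript length or over signal subtracted, and on the smoothed scale of ranks, which was added after the data were seen. Of 290 log2 ratios of single members recomputed, 1 uncalled value changed sign: that of Axl between genotypes with IL-10, which was 0.01 with the length trend subtracted. No paired analysis was possible because the table used here holds 1 value per group and no value per replicate; leave-one-out fits were not run for the same reason. Depth is unknown, so no limit of detection can be given for Cd163 or Marco, and signals above 60000 units are too coarse to show small differences.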

Other observations

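Other genes of lipid uptake also stood at the top of the scale, with repeated values, and were chosen with their values known. Lpl, which encodes lipoprotein lipase, was listed at 272893 units in all 4 columns. Cd68, a lysosomal glycoprotein of macrophages, was listed at 272612 units in both knockout columns, against 226524 units in both wild-type columns. Apoe, a ligand of LRP1, was listed at 52808 units in knockout IL-10 cells and at 56629 units in each of the other columns. Of the 37 genes with a mean above 60000 units, 16 had exactly equal signals in knockout and wild type under mock, and 16 with IL-10.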
